A study of Mus musculus with 8 samples.

Results

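The RNA of OT-I T cells, mouse CD8+ T cells with a transgenic receptor for a peptide of ovalbumin, was compared after culture with lymph node resident against migratory dendritic cells (DC). The comparison takes the 3 libraries of T cells from culture with resident CD8a+ DC on one side. On the other side are 3 libraries from culture with migratory CD103+ DC and 2, numbered 2 and 3, from culture with migratory CD11b+ DC, and the 2 migratory groups were given equal weight. These are all 8 libraries of the series. In every group C57BL/6 T cells had been kept for 72 hours with DC that carried antigen, and only divided T cells were sorted for RNA, so undivided cells are outside the data. Neither the labels nor the table tell whether libraries of 1 group are separate cultures or animals, so the spread behind each p-value may be technical. The groups are called the CD8a DC, CD103 DC and CD11b DC groups after the DC that the T cells were kept with.

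DC take up antigen and show its peptides to T cells. Migratory DC carry antigen from a tissue to the draining lymph node through the lymph, whereas resident DC develop in the node and depend on antigen that reaches them there. A CD8+ T cell reads the peptide through its receptor, costimulation through CD28, and cytokines such as IL-2, IL-12 and the interferons, and these inputs together set its growth, division and effector genes. Interferon gamma acts mainly on genes with GAS elements, and type I interferon on genes with ISRE elements.

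Depth was 16293042 to 21973391 reads per library, as recovered from the deposited values. On principal component 1 (20.9% of the variance) CD8a DC replicate 2 lay far out, at 138, and the 7 others between -44.0 and 26.1. T cell identity transcripts were high in all libraries, with a sum of 12307 to 14425 CPM (normalized counts scaled to a common library total) in the CD8a DC group and 14720 to 16694 CPM in the 5 migratory libraries. The share of mitochondrially encoded reads was 9.12% to 11.8% against 6.69% to 7.72%, and the 20 most abundant genes took 13.9% to 16.3% against 11.5% to 12.7%. Transcripts of a list of 25 DC markers summed to 468 to 900 CPM with CD8a+ DC against 910 to 1111 CPM. Each of these 4 measures kept the CD8a DC libraries on one side of all 5 migratory libraries. For each of them the exact permutation test of 3 against 5 libraries gave two-sided p = 0.0357, the smallest that 56 assignments allow, and 0.0714 after adjustment over 12 measures.

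Of 18971 genes tested, 427 (2.25%) passed a Benjamini-Hochberg adjusted p of 0.05 in limma-trend with the 2 migratory groups weighted equally. Of these, 425 (2.24%) had the same sign against each migratory group, 209 higher (1.1%) and 216 lower (1.14%) with CD8a+ DC, and these are the genes called here. The 3 CD8a DC libraries lay all above or all below the 5 migratory libraries for 362 of the 425, beside 1726 (9.1%) of all genes tested. A stricter rule, passing with the same sign against each migratory group taken alone, left 99 genes (0.522%), of which 29 were higher (0.153%) and 70 lower (0.369%). These 99 are called strict below. Taken alone, the CD103 DC group differed from the CD8a DC group at 273 genes (1.44%) and the CD11b DC group at 374 (1.97%). Of the 425 genes, 82 passed only against the CD103 DC group, 188 only against the CD11b DC group and 56 against neither. Both single comparisons use the same 3 CD8a DC libraries. The 2 migratory groups differed from each other at 63 genes (0.332%).

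**Figure D1:**
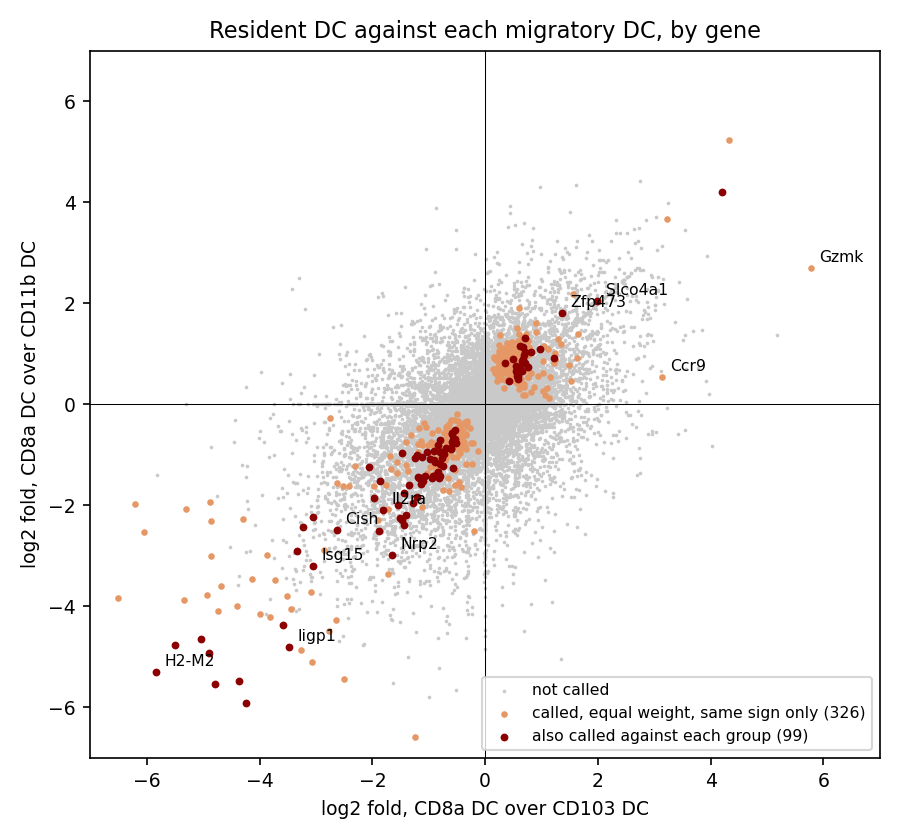
Each point is 1 of 18971 genes, with the log2 fold of the CD8a DC group over the CD103 DC group on the x axis and over the CD11b DC group on the y axis. Dark points are the 99 strict genes, orange points the other 326 called genes and grey points the rest. Both axes share the 3 CD8a DC libraries.

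Only 2 genes that passed in the equal-weight contrast had opposite signs against the 2 groups. Ifngr1, which encodes the ligand-binding chain of the interferon gamma receptor, was at 603, 507 and 384 CPM with CD8a+ DC, 243, 226 and 175 CPM with CD103+ DC and 511 and 517 CPM with CD11b+ DC. Itga4, the integrin alpha 4 chain, was at 614, 431 and 421 CPM, 151, 135 and 141 CPM, and 659 and 457 CPM in the same order. For both genes the CD103 DC group was low and the other groups overlapped.

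The split between higher and lower genes moved with the scaling of the libraries. Scaling to total count gave 149 higher and 295 lower genes, and a correction for transcript length and GC content gave 417 higher and 155 lower. The median log2 fold of all genes was -0.04 as tested, -0.09 with total-count scaling and 0.07 with the length and GC correction. The median fell with transcript length, from 0.01 for 8295 genes under 1 kb to -0.35 for 63 genes of 8 kb and over. Leaving out CD8a DC replicate 2, the library far out on principal component 1, gave 237 higher and 320 lower genes, and 130 strict genes. Without a trend of variance with level in the test, 14 genes were called.

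**Figure D2:**
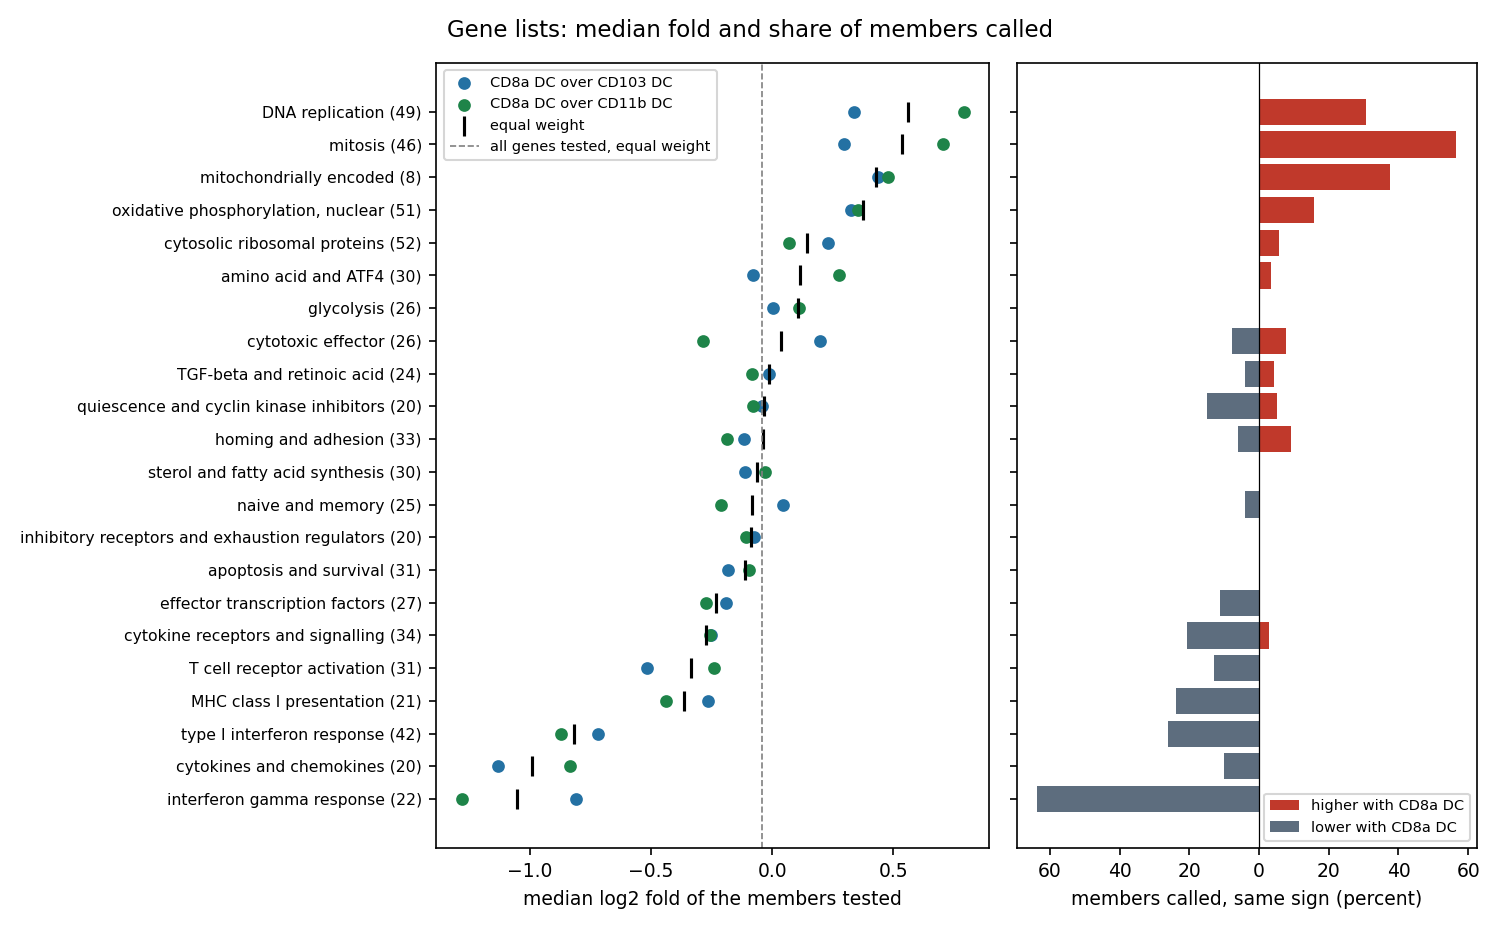
Left, median log2 fold of the tested members of each of 22 gene lists (number tested in parentheses) against the CD103 DC group (blue), the CD11b DC group (green) and both with equal weight (black bars); the dashed line is the median of all genes. Right, percent of the tested members called higher (red) or lower (grey). The interferon gamma list has a median of -1.05 with 14 of 22 members lower, and the mitosis list 0.54 with 26 of 46 higher.

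Genes of the list written for interferon gamma were lower in T cells from culture with resident DC. Of 22 tested members of the list, 14 fell, 12 of them by the strict rule, and none rose. The median log2 fold was -1.05 beside -0.04 for all genes, at -0.81 against the CD103 DC group and -1.28 against the CD11b DC group. All 22 had a log2 fold below 0, beside 10123 of all 18971 genes tested. In each of the 14 that fell, the 3 CD8a DC libraries lay below all 5 migratory libraries. Such lack of overlap was common among called genes, at 362 of 425. Leaving out any 1 library left 12 to 14 lower.

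The proximal promoters of 2 neighbouring members are shown because they carry both interferon elements side by side. Igtp (also Irgm3) and Irgm2 encode immunity-related GTPases, which act on the vacuoles of intracellular pathogens. The windows are RefSeq sequence on GRCm38.p6, 250 bases before to 50 after the gene start, on the strand of the gene, at chr11:58199306-58199605 (+) for Igtp and chr11:58214727-58215026 (+) for Irgm2. Capitals mark matches on either strand to the GAS core TTCNNNGAA and the ISRE core GAAANNGAAA, in which N is any base.
Igtp: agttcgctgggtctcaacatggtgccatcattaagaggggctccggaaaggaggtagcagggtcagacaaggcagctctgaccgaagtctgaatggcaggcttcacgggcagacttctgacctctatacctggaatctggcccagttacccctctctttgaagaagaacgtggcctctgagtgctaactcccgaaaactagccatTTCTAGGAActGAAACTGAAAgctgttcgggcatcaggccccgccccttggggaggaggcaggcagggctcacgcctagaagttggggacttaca
Irgm2: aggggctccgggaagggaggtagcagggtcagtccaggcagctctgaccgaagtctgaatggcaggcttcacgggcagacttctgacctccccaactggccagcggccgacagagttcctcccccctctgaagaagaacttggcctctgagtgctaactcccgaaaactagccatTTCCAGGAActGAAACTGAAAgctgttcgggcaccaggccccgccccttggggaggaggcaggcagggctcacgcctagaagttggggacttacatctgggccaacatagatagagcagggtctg
The ISRE core was in 10 of 14 windows of tested members of the interferon gamma list and the GAS core in 8 of 14, against 3.99% and 9.55% of 27025 genes with a window. Members were listed as interferon-induced genes, so a higher share than among all genes is not a result of these data. A match is a run of letters, not a shown binding site. Which interferon acted on these genes was not tested.

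Igtp was at 215, 155 and 153 CPM with CD8a+ DC, 306, 343 and 372 CPM with CD103+ DC and 434 and 526 CPM with CD11b+ DC. Every CD8a DC library was below every migratory library, and the highest values were those of the CD11b DC group. The log2 fold was -1.17 ± 0.13 SE, adjusted p = 0.000415, or -0.92 on the log2 scale against the CD103 DC group (adjusted p = 0.00569) and -1.42 against the CD11b DC group (adjusted p = 0.000473). Irgm2 was at 162, 113 and 113 CPM with CD8a+ DC, 243, 209 and 243 CPM with CD103+ DC and 286 and 315 CPM with CD11b+ DC, also without overlap (log2 fold -0.996 ± 0.13 SE, adjusted p = 0.00191). The annotated spans of the 2 genes overlap on the same strand, so reads may be split between them.

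Nlrc5, the transactivator of MHC class I genes, was at 159, 151 and 159 CPM with CD8a+ DC, 256, 268 and 323 CPM with CD103+ DC and 306 and 318 CPM with CD11b+ DC, with CD8a DC libraries that differed little among themselves (log2 fold -0.86 ± 0.10 SE, adjusted p = 0.00115).

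Guanylate-binding proteins, interferon-induced GTPases of cell-autonomous defence, made up 6 of the 14 genes that fell. Gbp4 was at 138, 135 and 109 CPM with CD8a+ DC, 270.3, 247 and 243 CPM with CD103+ DC and 361 and 362 CPM with CD11b+ DC. The CD8a DC libraries were lowest and the CD11b DC libraries highest (log2 fold -1.20 ± 0.11 SE, adjusted p = 0.000126). Gbp2, Gbp3, Gbp7, Gbp8 and Gbp9 had log2 folds of -1.02, -0.67, -1.24, -1.02 and -1.11. Gbp4, Gbp8 and Gbp9 overlap in the annotation and these genes are close copies, so their separate values are uncertain. Tgtp1 and Tgtp2, a pair of T cell GTPase genes with log2 folds of -1.62 and -1.09, are also close copies with uncertain separate values. Their annotated spans do not overlap each other, but that of Tgtp1 overlaps Gm12185.

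Iigp1, a further immunity-related GTPase, had the largest fold of the list. It was at 4.11, 1.14 and 4.51 CPM with CD8a+ DC, 37.2, 31.4 and 29.8 CPM with CD103+ DC and 67.03 and 99.4 CPM with CD11b+ DC. The CD8a DC libraries were several-fold below every migratory library (log2 fold -4.14 ± 0.37 SE, adjusted p = 0.000117). The log2 fold was -3.53 without CD8a DC replicate 2, the lowest of the 8 libraries. Cd274, which encodes the inhibitory ligand PD-L1, was at 42.2, 59.2 and 42.5 CPM with CD8a+ DC, 119.6, 118 and 113 CPM with CD103+ DC and 124 and 84.1 CPM with CD11b+ DC, with no overlap (log2 fold -1.15 ± 0.17 SE, adjusted p = 0.00321). Irf1, an early interferon gamma target, was at 138, 115 and 114 CPM with CD8a+ DC, 157, 161 and 165 CPM with CD103+ DC and 175 and 178 CPM with CD11b+ DC, a log2 fold of -0.41 that did not pass (adjusted p = 0.0631). Ifng itself was near 0 in all groups, with at most 2.82 CPM in any library, and did not pass (adjusted p = 0.851).

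**Figure D3:**
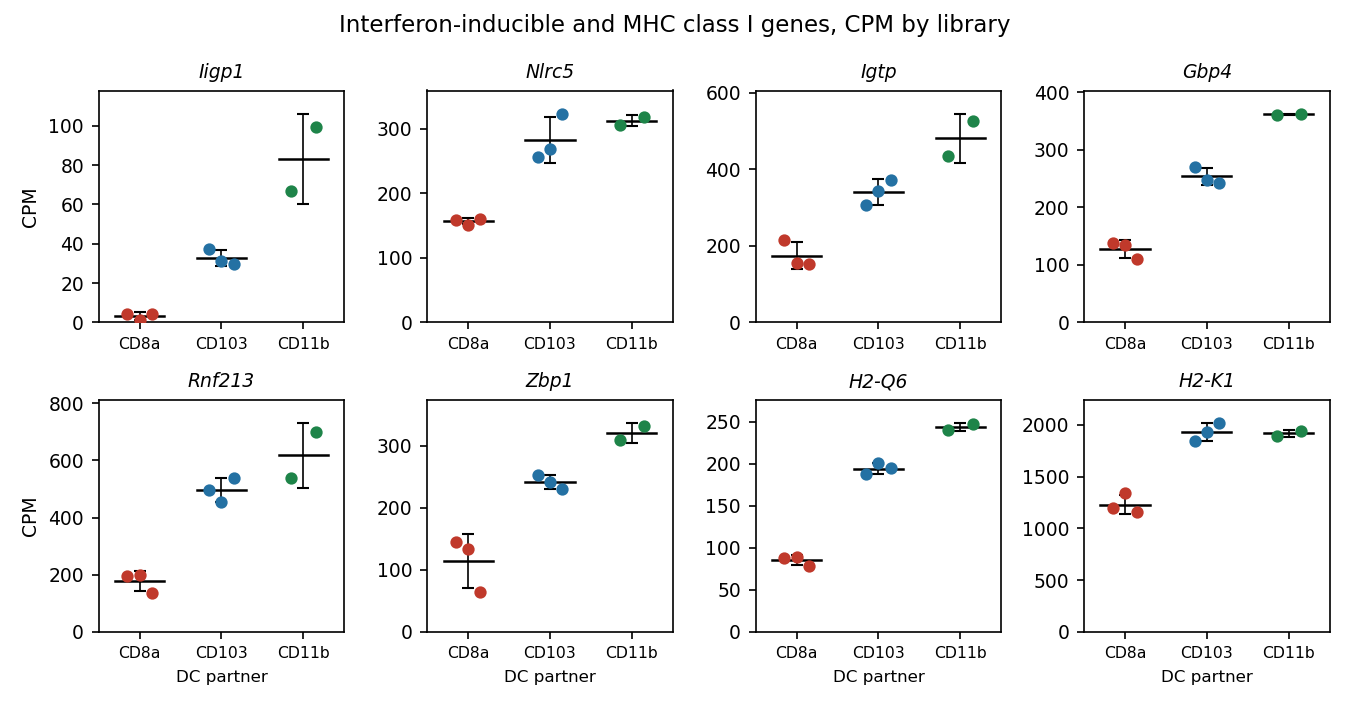
CPM of 8 genes in each library, by DC partner; points are libraries, bars the mean and whiskers the SD (n = 3, 3 and 2), each axis starting at 0. In all 8 panels the 3 CD8a DC libraries sit below the 5 migratory libraries.

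Of 42 tested members of the type I interferon list, 11 fell, 4 of them by the strict rule, and none rose. A log2 fold below 0 was found for 41 of them, beside 10123 of all 18971 genes tested. The median log2 fold was -0.82, at -0.72 against the CD103 DC group and -0.87 against the CD11b DC group. Isg15, a ubiquitin-like protein joined to targets after interferon, is shown for its promoter at chr4:156200769-156201068 (-), in which 3 ISRE cores are in capitals and partly run into each other.
Isg15: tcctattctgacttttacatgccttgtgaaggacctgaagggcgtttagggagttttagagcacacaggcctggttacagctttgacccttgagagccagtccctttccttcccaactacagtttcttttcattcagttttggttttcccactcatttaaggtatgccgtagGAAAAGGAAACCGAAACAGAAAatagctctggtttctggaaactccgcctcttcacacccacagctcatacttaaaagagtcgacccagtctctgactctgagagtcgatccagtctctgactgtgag
The ISRE core was in 18 of 30 windows of tested members of this list and the GAS core in 6 of 30. As for the list above, these shares are not a result of these data. Isg15 was at 1.78, 1.41 and 0.214 CPM with CD8a+ DC, 8.72, 7.43 and 6.95 CPM with CD103+ DC and 6.93 and 10.4 CPM with CD11b+ DC. All CD8a DC libraries were below 2 CPM and all migratory libraries above 6 CPM (log2 fold -3.13 ± 0.60 SE, adjusted p = 0.0139). The log2 fold was -2.25 without CD8a DC replicate 3.

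Rnf213, a large interferon-induced ubiquitin ligase outside the list, was among the 5 lower genes with the smallest p-values. It was at 196, 198 and 137 CPM with CD8a+ DC, 498, 453 and 537 CPM with CD103+ DC and 538 and 698 CPM with CD11b+ DC. All CD8a DC libraries were below 200 CPM and all migratory libraries above 450 CPM (log2 fold -1.60 ± 0.14 SE, adjusted p = 9.44e-05). Lack of overlap was a condition for naming this gene. Its transcript length of 16716 bases puts it among the 63 genes of 8 kb and over, whose median log2 fold was -0.35.

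Zbp1, a sensor of Z-form nucleic acid, was at 145, 133 and 64.2 CPM with CD8a+ DC, 253, 241 and 230.2 CPM with CD103+ DC and 309 and 332 CPM with CD11b+ DC, with CD8a DC replicate 3 lowest (log2 fold -1.32 ± 0.21 SE, adjusted p = 0.00568). Oas3, which makes the activator of RNase L, was at 166, 243 and 162 CPM with CD8a+ DC, 349, 282 and 383 CPM with CD103+ DC and 315 and 435 CPM with CD11b+ DC (log2 fold -0.86 ± 0.16 SE, adjusted p = 0.0133). Rsad2, Slfn8, Xaf1, Mx1, Ifih1, Parp14, Trim30a and Ifi27l2a had log2 folds of -2.54, -1.08, -1.23, -1.89, -0.90, -0.69, -0.61 and -0.78. The count of 11 moved with the processing and with single libraries. It was 7 with the length and GC correction, 3 without CD103 DC replicate 1, 7 without CD103 DC replicate 2, 5 without CD11b DC replicate 2, 3 without CD11b DC replicate 3 and 18 without CD8a DC replicate 2.

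Of 21 tested genes of MHC class I presentation, 5 fell and all 5 by the strict rule, with a median of -0.36. They were the classical heavy chain gene H2-K1, the class Ib genes H2-Q4, H2-Q6 and H2-Q7, and Tap1, a chain of the peptide transporter. H2-K1 was at 1194, 1337 and 1159 CPM with CD8a+ DC, 1844, 1931 and 2018 CPM with CD103+ DC and 1892 and 1942 CPM with CD11b+ DC, with all CD8a DC libraries lowest (log2 fold -0.59 ± 0.08 SE, adjusted p = 0.00209). H2-Q6 was at 88.1, 88.7 and 78.7 CPM with CD8a+ DC, 187, 200.5 and 195 CPM with CD103+ DC and 239.7 and 247 CPM with CD11b+ DC. The 3 CD8a DC libraries were close together and well below the others (log2 fold -1.30 ± 0.10 SE, adjusted p = 8.23e-05). Tap1 was at 235, 231 and 179 CPM with CD8a+ DC, 309, 329.8 and 346 CPM with CD103+ DC and 350.1 and 363 CPM with CD11b+ DC (log2 fold -0.63 ± 0.11 SE, adjusted p = 0.00946). The H2-Q genes are near-identical copies between which reads could be split. Without CD8a DC replicate 2, 8 of the 21 fell. None of the windows of the 5 genes held an exact match to the ISRE or GAS core letters. Variant forms of these elements were not searched, so their absence is not shown.

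DC express interferon-induced and MHC class I genes too, and summed DC transcripts were lowest in the same libraries. Of 24 tested DC markers, 21 had a log2 fold below 0 (10123 of all 18971 genes tested), with a median of -1.001, and 2 passed. Ccl22, a chemokine of mature DC that activated T cells can also express, was at 62.4, 86.1 and 31.7 CPM with CD8a+ DC, 144, 144 and 169 CPM with CD103+ DC and 315 and 221 CPM with CD11b+ DC (log2 fold -1.80 ± 0.25 SE, adjusted p = 0.0027). Cd86, a costimulatory ligand, was at 22.03, 37.9 and 16.7 CPM with CD8a+ DC, 66.9, 62.8 and 43.7 CPM with CD103+ DC and 56.04 and 40.6 CPM with CD11b+ DC (log2 fold -1.06 ± 0.25 SE, adjusted p = 0.0461). Markers that define DC subsets were near 0. Sirpa and Siglech were at 0 in all CD8a DC libraries, Itgax did not exceed 2.48 CPM in any library, and Xcr1 did not exceed 2.48 CPM. Clec9a, a marker of cross-presenting DC, was at 1.84, 4.51 and 0.10 CPM with CD8a+ DC and at no more than 0.31 CPM elsewhere. The part of DC transcripts in the fall of the interferon genes was not tested. In bulk RNA, fewer DC, less RNA per DC and lower expression of listed markers by the T cells cannot be told apart. Macrophage and monocyte markers summed to 68.9 to 129 CPM against 130 to 159 CPM and NK cell markers to 5.95 to 6.27 CPM against 9.27 to 13.2 CPM, while B cell markers overlapped at 990 to 1293 CPM against 1040 to 1233 CPM. Of 16 macrophage and monocyte markers, 6 were at 0 in every library, Adgre1 and Cd14 among them, and of 7 NK cell markers 3, Ncr1 among them.

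Il2ra and Il12rb2, receptor chains for IL-2 and IL-12, were lower with resident DC. Il2ra was counted among the genes induced by the T cell receptor. Of 34 tested members of the list of cytokine receptors and signalling, 7 fell and 1 rose, beside 1.14% and 1.1% of all genes tested. The median of the list was -0.27. IL-2 signals through STAT5, which binds GAS elements, and its target Cish encodes a feedback inhibitor. The Cish promoter at chr9:107296409-107296708 (+) is shown because it holds 2 GAS cores, in capitals.
Cish: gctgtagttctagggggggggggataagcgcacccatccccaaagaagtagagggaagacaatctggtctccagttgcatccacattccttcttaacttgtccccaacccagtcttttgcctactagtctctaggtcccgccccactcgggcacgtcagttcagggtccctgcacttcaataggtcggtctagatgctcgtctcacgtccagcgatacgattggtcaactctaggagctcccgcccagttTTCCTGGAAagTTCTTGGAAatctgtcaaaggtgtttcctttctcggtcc
Cish was at 1.35, 3.19 and 1.49 CPM with CD8a+ DC, 8.72, 16.4 and 12.8 CPM with CD103+ DC and 13.9 and 8.82 CPM with CD11b+ DC. The CD8a DC libraries stayed below 4 CPM and the migratory libraries above 8 CPM (log2 fold -2.56 ± 0.41 SE, adjusted p = 0.00577). It passed the strict rule, with -2.63 on the log2 scale against the CD103 DC group (adjusted p = 0.0112) and -2.49 against the CD11b DC group (adjusted p = 0.0202).

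Il2ra, the alpha chain that gives the IL-2 receptor its high affinity, was at 7.37, 6.41 and 17.4 CPM with CD8a+ DC, 51.7, 26.4 and 29.9 CPM with CD103+ DC and 41.3 and 42.4 CPM with CD11b+ DC. CD8a DC replicate 3 was the highest of its group and still below the lowest migratory library (log2 fold -1.96 ± 0.32 SE, adjusted p = 0.0062). Il12rb2, the signalling chain of the IL-12 receptor, was at 74.4, 92.8 and 120.2 CPM with CD8a+ DC, 179, 182 and 154 CPM with CD103+ DC and 202 and 175 CPM with CD11b+ DC, again without overlap (log2 fold -0.88 ± 0.15 SE, adjusted p = 0.00763). Socs2, a further STAT5 target, was at 2.33, 3.14 and 1.12 CPM with CD8a+ DC, 6.16, 8.55 and 9.83 CPM with CD103+ DC and 14.6 and 7.46 CPM with CD11b+ DC and passed only with both groups together or against the CD11b DC group (log2 fold -2.10 ± 0.44 SE, adjusted p = 0.0224).

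The other members that fell were Il7r, the IL-7 receptor alpha chain (log2 fold -0.63 ± 0.13 SE, adjusted p = 0.0214), Il15ra, which presents IL-15 (log2 fold -0.99 ± 0.24 SE, adjusted p = 0.0456), the survival kinase gene Pim2 (log2 fold -0.65 ± 0.14 SE, adjusted p = 0.0288) and Il6st, the shared gp130 chain (log2 fold -0.43 ± 0.09 SE, adjusted p = 0.0291). Il10ra, the ligand-binding chain of the IL-10 receptor, rose. It was at 147, 124 and 115 CPM with CD8a+ DC, 64.3, 66.97 and 55.4 CPM with CD103+ DC and 111 and 102 CPM with CD11b+ DC (log2 fold 0.71 ± 0.13 SE, adjusted p = 0.0105), and the change was 1.10 on the log2 scale against the CD103 DC group (adjusted p = 0.0031) and 0.32 against the CD11b DC group (adjusted p = 0.405). Il2 was at no more than 1.04 CPM in any library and did not pass (adjusted p = 0.515). The call of Il10ra was lost without CD11b DC replicate 3 or CD8a DC replicate 1. With the length and GC correction 4 genes of the list fell and 3 rose. The 7 lower genes were 2 without CD103 DC replicate 1 or 3 or CD11b DC replicate 3, and 4 without CD103 DC replicate 2, CD11b DC replicate 2 or CD8a DC replicate 1 or 3. Summed DC transcripts were lowest in the same libraries, as given above, and their part was not tested here either.

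**Figure D4:**
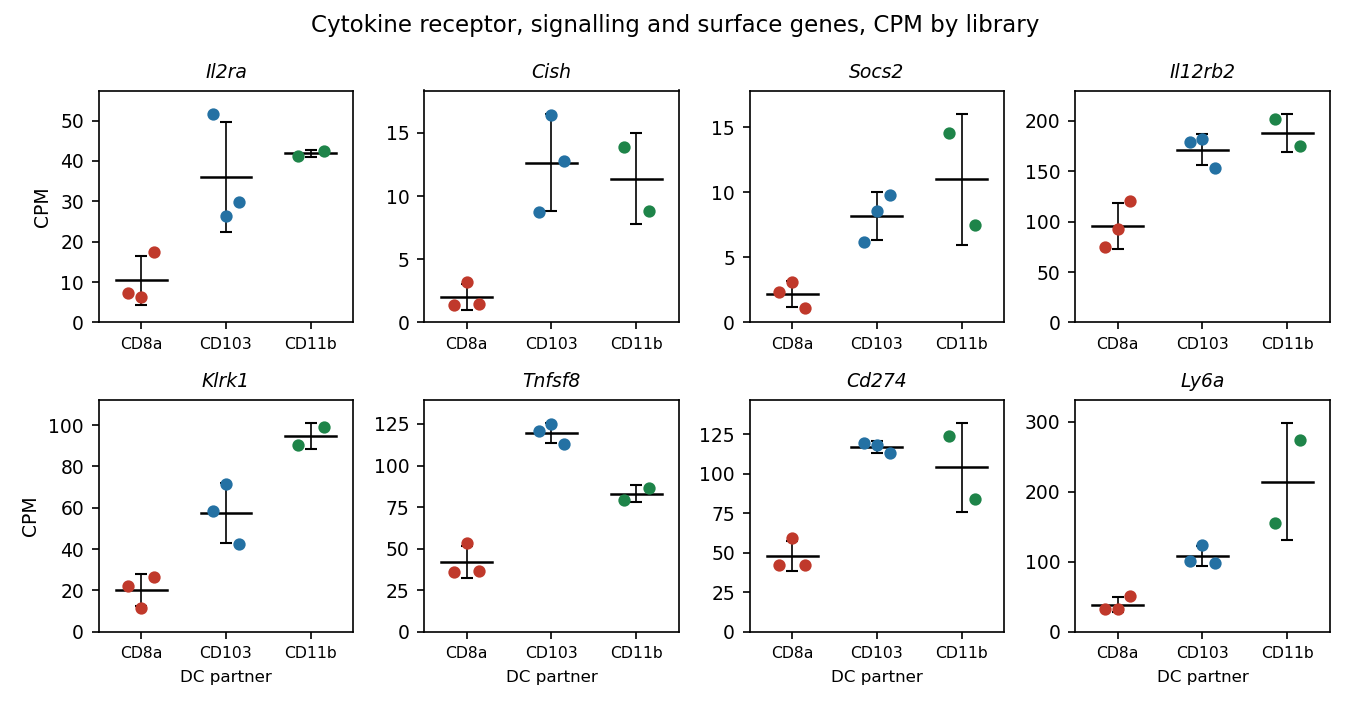
CPM of 8 genes in each library, by DC partner; points are libraries, bars the mean and whiskers the SD (n = 3, 3 and 2), each axis starting at 0. The CD8a DC libraries are the 3 lowest of 8 in every panel, and for Klrk1 and Ly6a the CD11b DC libraries are the highest.

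Genes induced by the T cell receptor were lower or not called. Of 31 tested, 4 fell, beside 1.14% of all genes tested, and none rose. The median was -0.33, at -0.52 against the CD103 DC group and -0.24 against the CD11b DC group. Besides Il2ra these were Myc, a driver of growth in activated T cells, at 32.3, 47.2 and 60.1 CPM with CD8a+ DC, 78.05, 87.1 and 88.98 CPM with CD103+ DC and 97.2 and 75.4 CPM with CD11b+ DC (log2 fold -0.86 ± 0.19 SE, adjusted p = 0.0267), the NF-kappaB inhibitor Nfkbia (log2 fold -0.73 ± 0.16 SE, adjusted p = 0.0318) and the AP-1 gene Jun (log2 fold -1.03 ± 0.24 SE, adjusted p = 0.0413). Only Il2ra passed the strict rule, and 1 gene was called in each fit that left out 1 of the 5 migratory libraries or CD8a DC replicate 1, against 7 without CD8a DC replicate 3. Irf4, whose level follows receptor signal strength, was at 29.6, 19.7 and 75.5 CPM with CD8a+ DC, 81.1, 84.6 and 79.9 CPM with CD103+ DC and 51.1 and 68.7 CPM with CD11b+ DC. CD8a DC replicate 3 reached the migratory range, and the gene did not pass (adjusted p = 0.154). Cd69 was at 13.6, 12.9 and 15.1 CPM with CD8a+ DC, 31.6, 37.6 and 41.9 CPM with CD103+ DC and 14.8 and 21.9 CPM with CD11b+ DC, lowest with CD8a+ DC and close to it with CD11b+ DC (adjusted p = 0.0533), and passed against the CD103 DC group alone. Its fold was -1.35 on the log2 scale against the CD103 DC group (adjusted p = 0.011) and -0.33 against the CD11b DC group (adjusted p = 0.642). Summed DC transcripts were lowest in the CD8a DC libraries (468 to 900 CPM against 910 to 1111 CPM), and their part in the fall of these genes was not tested.

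Among effector transcription factors, 3 of 27 fell and none rose, and 1 fell without CD11b DC replicate 2 or 3. Rora, a nuclear receptor of the ROR family, was at 39.2, 40.5 and 28.7 CPM with CD8a+ DC, 93.1, 84.7 and 79.3 CPM with CD103+ DC and 76.4 and 72.2 CPM with CD11b+ DC, lowest in all CD8a DC libraries, and met the strict rule (log2 fold -1.10 ± 0.15 SE, adjusted p = 0.0028). Bhlhe40, a regulator of cytokine production, was at 10.7, 20.7 and 40.7 CPM with CD8a+ DC, 83.8, 80.2 and 58.5 CPM with CD103+ DC and 62.7 and 67.9 CPM with CD11b+ DC, with CD8a DC replicate 3 the highest of its group (log2 fold -1.67 ± 0.31 SE, adjusted p = 0.0125). Rara, a retinoic acid receptor, had a log2 fold of -0.75 ± 0.15 SE, adjusted p = 0.0148. Tbx21 and Eomes, which direct effector and memory programmes, overlapped between groups, with log2 folds of 0.15 and 0.44 (adjusted p = 0.848 and 0.144). So did Tcf7, the TCF1 gene of naive and memory cells, at 2202, 2516 and 1935 CPM with CD8a+ DC, 1926, 1895 and 2170.2 CPM with CD103+ DC and 2079 and 2051 CPM with CD11b+ DC (adjusted p = 0.416). Beside the 3 of 27 effector factors that fell, 1.14% of all genes tested fell. The part of the lower DC transcript sum in the falls of these factors was not tested either.

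Of 20 tested cytokine and chemokine genes, 2 fell, both by the strict rule, beside 1.14% of all genes tested. The median was -0.99. Without CD8a DC replicate 2, 4 fell. Tnfsf8 (CD30 ligand) was at 36.3, 53.3 and 36.4 CPM with CD8a+ DC, 121, 125 and 113 CPM with CD103+ DC and 79.4 and 86.7 CPM with CD11b+ DC, highest with CD103+ DC (log2 fold -1.21 ± 0.16 SE, adjusted p = 0.00187). Tnfsf10 (TRAIL), a death ligand, was at 40.6, 25.5 and 32.1 CPM with CD8a+ DC, 71.6, 71.9 and 61.7 CPM with CD103+ DC and 59.4 and 69.3 CPM with CD11b+ DC (log2 fold -0.99 ± 0.16 SE, adjusted p = 0.0076). None of 20 inhibitory receptors and exhaustion regulators was called in limma-trend as tested or in edgeR, 8 had an unadjusted p under 0.05, and DESeq2 called 2 higher and 3 lower. In limma-trend, 1 fell with total-count scaling, 1 with the 5 migratory libraries weighted equally and 2 when a mean normalized count of at least 10 was required, and voom also called 1 lower. Without CD8a DC replicate 2, 1 rose, and without CD8a DC replicate 3, 1 rose and 3 fell. Summed DC transcripts were lowest in the CD8a DC libraries here too, and their part was not tested. Pdcd1, which encodes PD-1, was at 9.45, 12.1 and 13.4 CPM with CD8a+ DC, 8.93, 8.24 and 9.24 CPM with CD103+ DC and 3.82 and 3.76 CPM with CD11b+ DC (adjusted p = 0.0876).

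Cytotoxic effector genes moved in both directions, with 2 of 26 higher and 2 lower, beside 1.1% and 1.14% of all genes tested. The 2 higher genes were 0 without CD11b DC replicate 2 or CD8a DC replicate 1 and 1 without CD103 DC replicate 1 or CD11b DC replicate 3. The 2 lower genes were 1 without CD103 DC replicate 1, CD11b DC replicate 2 or CD8a DC replicate 1 or 3. Klrk1, which encodes the activating receptor NKG2D, was at 22.4, 11.6 and 26.6 CPM with CD8a+ DC, 58.7, 71.4 and 42.7 CPM with CD103+ DC and 90.3 and 99.2 CPM with CD11b+ DC. All CD8a DC libraries were lowest and both CD11b DC libraries highest (log2 fold -1.88 ± 0.24 SE, adjusted p = 0.00187). Serpinb9, an inhibitor of granzyme B, was at 30.4, 47.6 and 29.5 CPM with CD8a+ DC, 86.1, 62.5 and 64.9 CPM with CD103+ DC and 84.1 and 61.5 CPM with CD11b+ DC (log2 fold -0.97 ± 0.20 SE, adjusted p = 0.0212). Gzmk, the gene of granzyme K, was at 19.6, 4.73 and 5.31 CPM with CD8a+ DC, 0.259, 0.153 and 0 CPM with CD103+ DC and 1.098 and 1.35 CPM with CD11b+ DC. CD8a DC replicate 1 was several-fold above the other two, and without it the log2 fold of 4.24 became 3.59 with adjusted p = 0.0779. Lgals1, encoding galectin-1, rose by the strict rule (log2 fold 0.60 ± 0.11 SE, adjusted p = 0.0128). Gzmb was at 11.8, 14.3 and 37.7 CPM with CD8a+ DC, 9.29, 18.2 and 11.3 CPM with CD103+ DC and 76.2 and 55.9 CPM with CD11b+ DC, where the CD11b DC group was high and the other groups overlapped (adjusted p = 0.47). Prf1, encoding perforin, was at 3.01 to 9.16 CPM in all libraries (adjusted p = 0.916). Cd8a was slightly lower with CD8a+ DC, at 1501, 1652 and 1373 CPM with CD8a+ DC, 1982, 2081 and 1968 CPM with CD103+ DC and 1862 and 2142 CPM with CD11b+ DC (log2 fold -0.36 ± 0.08 SE, adjusted p = 0.0424), and passed against neither group alone.

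Homing and adhesion genes gave 3 higher and 2 lower of 33 tested, beside 1.1% and 1.14% of all genes tested. The 3 higher were 1 without CD11b DC replicate 3 or CD8a DC replicate 1 and 5 without CD8a DC replicate 3, and the 2 lower were 6 without CD8a DC replicate 2 and 1 in the other fits but that without CD8a DC replicate 3. Ly6a (Sca-1), a surface protein that interferon also induces, was at 32.7, 32.95 and 50.8 CPM with CD8a+ DC, 101, 125 and 98.5 CPM with CD103+ DC and 155 and 274 CPM with CD11b+ DC, lowest in all CD8a DC libraries (log2 fold -1.92 ± 0.19 SE, adjusted p = 0.000304). Cxcr4, the receptor for CXCL12, was at 89.2, 47.1 and 75.4 CPM with CD8a+ DC, 21.9, 23.9 and 22.8 CPM with CD103+ DC and 47.1 and 30.1 CPM with CD11b+ DC. The lowest CD8a DC library was level with the highest migratory library, and the other two were above it (log2 fold 1.27 ± 0.21 SE, adjusted p = 0.0076). Ccr9, the gut homing receptor, was at 95.4, 101 and 41.1 CPM with CD8a+ DC, 7.15, 6.91 and 13.01 CPM with CD103+ DC and 69.5 and 39.1 CPM with CD11b+ DC. All CD103 DC libraries were low, and the CD8a DC and CD11b DC libraries overlapped. The fold was 3.14 on the log2 scale against the CD103 DC group (adjusted p = 0.00127) and 0.54 against the CD11b DC group (adjusted p = 0.608). Gpr15, a receptor for homing to the large intestine, was at 58.2, 39.5 and 40.3 CPM with CD8a+ DC, 27.1, 25.2 and 18.3 CPM with CD103+ DC and 23.4 and 28.3 CPM with CD11b+ DC (log2 fold 0.94 ± 0.20 SE, adjusted p = 0.0249). Itgal, the LFA-1 alpha chain, had a log2 fold of -0.35 ± 0.09 SE, adjusted p = 0.0488.

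Many mitosis genes and fewer of the DNA replication genes were higher with resident DC, with larger median folds against the CD11b DC group. In the mitosis list 26 of 46 tested members rose and none fell, with a median log2 fold of 0.54, at 0.30 against the CD103 DC group and 0.71 against the CD11b DC group. Only 4 passed the strict rule, and 16 of the 26 had no overlap between libraries, beside 362 of the 425 called genes. In the DNA replication list 15 of 49 rose and none fell, 1 of them (E2f2) by the strict rule, with a median of 0.56, at 0.34 and 0.79. With the length and GC correction 23 of the 49 rose. Between the migratory groups, the median log2 fold of CD103 DC over CD11b DC was 0.42 for mitosis and 0.44 for DNA replication. Both exceeded the medians of the CD8a DC group over the CD103 DC group. The CD8a DC libraries also stood apart in the mitochondrially encoded share (9.12% to 11.8% against 6.69% to 7.72%), the share of the 20 most abundant genes and the summed T cell identity and DC transcripts, and the part of these in the cell cycle counts was not tested.

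The promoters of Ccnb2 and Cdca8, 2 of the mitotic genes, are shown for the elements of the DREAM complex and of NF-Y. The CHR element TTTGAA and the CCAAT box, on either strand, are in capitals, at chr9:70421505-70421804 (-) for Ccnb2 and chr4:124936868-124937167 (-) for Cdca8.
Ccnb2: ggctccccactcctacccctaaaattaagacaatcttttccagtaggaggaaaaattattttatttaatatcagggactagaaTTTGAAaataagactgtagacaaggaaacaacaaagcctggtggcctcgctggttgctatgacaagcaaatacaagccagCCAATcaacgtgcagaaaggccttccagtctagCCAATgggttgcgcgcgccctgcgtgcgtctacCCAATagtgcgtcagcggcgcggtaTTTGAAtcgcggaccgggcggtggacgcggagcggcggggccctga
Cdca8: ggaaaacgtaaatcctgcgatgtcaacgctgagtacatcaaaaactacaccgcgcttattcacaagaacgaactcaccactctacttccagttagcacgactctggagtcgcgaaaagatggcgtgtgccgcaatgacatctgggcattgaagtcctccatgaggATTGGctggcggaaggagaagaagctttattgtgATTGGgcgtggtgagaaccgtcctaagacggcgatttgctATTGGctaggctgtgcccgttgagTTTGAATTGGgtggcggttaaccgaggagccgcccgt
The CHR letters were in 28 of 38 windows of tested mitosis members and the CCAAT box in 32 of 38. Among all 27025 genes with a window the shares were 20.2% and 41.1%. Members were listed as mitosis genes, so their higher share is not a result of these data.

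Ccnb2, cyclin B2 of the entry into mitosis, was at 307, 218 and 202 CPM with CD8a+ DC, 135, 172 and 153 CPM with CD103+ DC and 131 and 109.6 CPM with CD11b+ DC. The CD8a DC libraries were the 3 highest (log2 fold 0.87 ± 0.14 SE, adjusted p = 0.00601). Cdca8, borealin of the chromosomal passenger complex, was at 212, 259 and 267 CPM with CD8a+ DC, 144, 166 and 157 CPM with CD103+ DC and 84.8 and 122 CPM with CD11b+ DC, also with no overlap (log2 fold 1.01 ± 0.13 SE, adjusted p = 0.00202). Ndc80, which holds microtubules at the kinetochore, was at 179, 169 and 191 CPM with CD8a+ DC, 117, 137 and 101 CPM with CD103+ DC and 83.1 and 86.2 CPM with CD11b+ DC (log2 fold 0.90 ± 0.12 SE, adjusted p = 0.00197).

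Birc5 (survivin) was at 366, 353 and 440.2 CPM with CD8a+ DC, 266, 296 and 260.1 CPM with CD103+ DC and 245 and 227 CPM with CD11b+ DC (log2 fold 0.65 ± 0.10 SE, adjusted p = 0.00449). Mki67, the gene of the proliferation antigen Ki-67, was at 3932, 3610.2 and 4368 CPM with CD8a+ DC, 3306, 3226 and 3177 CPM with CD103+ DC and 2361 and 2261 CPM with CD11b+ DC. The groups were ordered CD8a DC, CD103 DC and CD11b DC without overlap, and the migratory groups also differed from each other (log2 fold 0.48, adjusted p = 0.0376). Mki67 was 1 of 16 called genes that also passed between the migratory groups, with Top2a, Foxm1 and Incenp among them. The log2 folds of Top2a, Foxm1 and Incenp against the CD103 DC group were 0.14, 0.15 and 0.16 and did not pass. The 26 mitotic genes were 10, 17 and 16 without CD103 DC replicate 1, 2 or 3, and 6 and 9 without CD11b DC replicate 2 or 3.

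For DNA replication, E2f2, an activator of S phase genes, was at 355, 324 and 336 CPM with CD8a+ DC, 228, 215 and 264 CPM with CD103+ DC and 243 and 206 CPM with CD11b+ DC (log2 fold 0.61 ± 0.11 SE, adjusted p = 0.00859). Pole, the catalytic subunit of polymerase epsilon, was at 199, 194 and 237 CPM with CD8a+ DC, 159, 182 and 151 CPM with CD103+ DC and 121 and 87.6 CPM with CD11b+ DC (log2 fold 0.74 ± 0.13 SE, adjusted p = 0.00857). Its fold was 0.41 on the log2 scale against the CD103 DC group (adjusted p = 0.206) and 1.07 against the CD11b DC group (adjusted p = 0.00392). Lig1, which joins Okazaki fragments, was at 422, 310.1 and 505 CPM with CD8a+ DC, 283, 292 and 364 CPM with CD103+ DC and 190.1 and 187 CPM with CD11b+ DC, with 1 CD103 DC library above the lowest CD8a DC library (log2 fold 0.79 ± 0.14 SE, adjusted p = 0.00859). The count of 15 was 7 and 8 without CD103 DC replicate 1 or 3, 8 and 3 without CD11b DC replicate 2 or 3, 7 without CD8a DC replicate 1 and 25 without CD8a DC replicate 2.

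The list of cycle inhibitors and quiescence genes gave 3 lower and 1 higher of 20, beside 1.14% and 1.1% of all genes tested. This list also holds Ccnd2, a cyclin and not an inhibitor. Cdkn1a, the p21 inhibitor, was at 15.4, 10.5 and 23.7 CPM with CD8a+ DC, 61.8, 40.8 and 45.2 CPM with CD103+ DC and 44.4 and 28.97 CPM with CD11b+ DC (log2 fold -1.36 ± 0.26 SE, adjusted p = 0.0131). Ccnd2, the D-type cyclin of G1, was lower by the strict rule at 294, 241 and 234 CPM with CD8a+ DC, 474, 437 and 481 CPM with CD103+ DC and 406 and 454 CPM with CD11b+ DC (log2 fold -0.75 ± 0.10 SE, adjusted p = 0.00209). Cdkn2d, the p19 inhibitor, rose with a log2 fold of 0.50 ± 0.11 SE, adjusted p = 0.0267. This call was lost without CD103 DC replicate 1 or 3, CD11b DC replicate 3 or CD8a DC replicate 1 or 2. The 3 lower were 1 without CD103 DC replicate 1, CD11b DC replicate 2 or CD8a DC replicate 1.

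**Figure D5:**
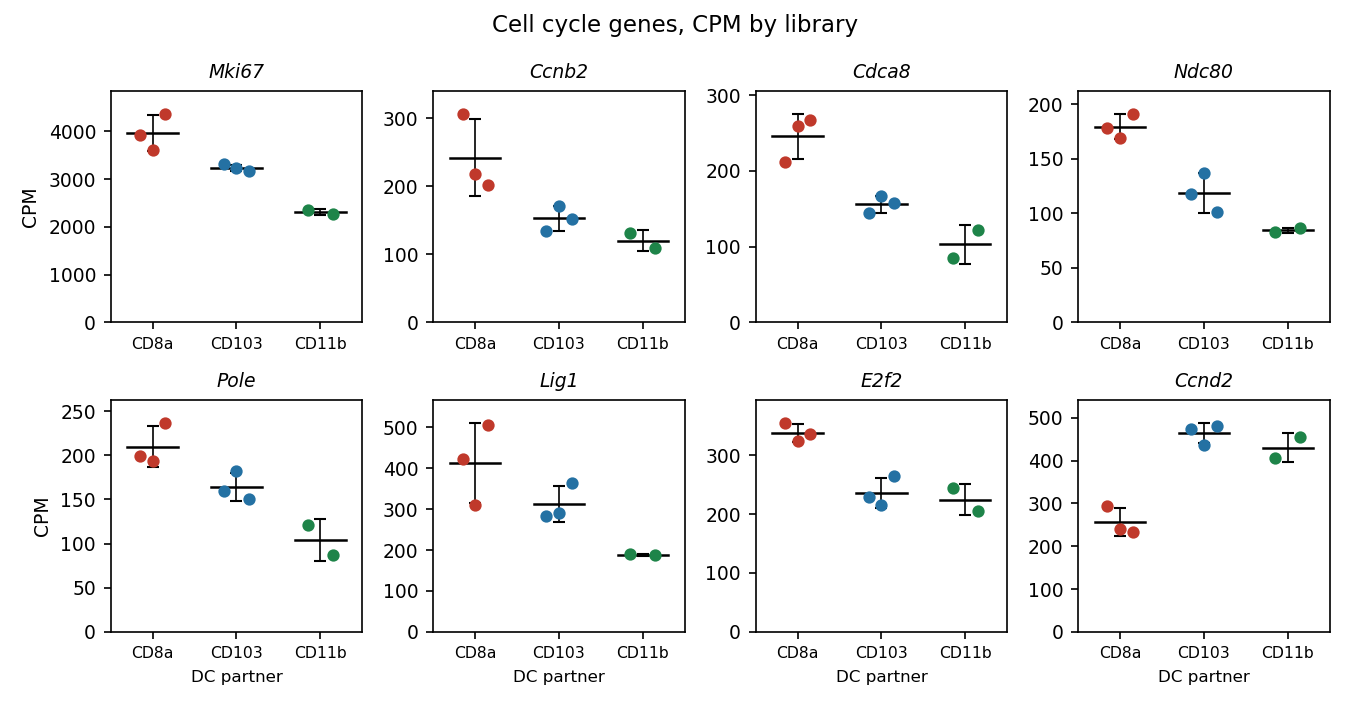
CPM of 8 cell cycle genes in each library, by DC partner; points are libraries, bars the mean and whiskers the SD (n = 3, 3 and 2), each axis starting at 0. For all genes but Ccnd2 the mean is highest with CD8a+ DC, and for Lig1 a CD103 DC library reaches into the CD8a DC range.

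Some genes of the respiratory chain were higher with resident DC. Of 51 tested nuclear members, 8 rose, beside 1.1% of all genes tested, 2 of the 8 by the strict rule. None fell, and the median was 0.38. The count was 5 with total-count scaling, 17 with the length and GC correction, 13 in voom and 21 in DESeq2. Cox6a1, a subunit of cytochrome c oxidase, was at 213, 241 and 265 CPM with CD8a+ DC, 137, 161 and 141 CPM with CD103+ DC and 134 and 163 CPM with CD11b+ DC, with all CD8a DC libraries highest (log2 fold 0.76 ± 0.12 SE, adjusted p = 0.00454). Cox6c, another subunit, was at 223, 203 and 167 CPM with CD8a+ DC, 119.5, 135 and 135 CPM with CD103+ DC and 124 and 132 CPM with CD11b+ DC (log2 fold 0.66 ± 0.12 SE, adjusted p = 0.0105); it overlaps Vps13b in the annotation. Cox4i1, Ndufa4, Ndufa1, Ndufv1, Cox7a2 and Atp5g3 had log2 folds of 0.52, 0.69, 0.56, 0.65, 0.75 and 0.45. The share of mitochondrially encoded reads was higher in the same libraries, and its part in these counts was not tested. The count of 8 was 3 and 5 without CD103 DC replicate 1 or 2, 1 and 2 without CD11b DC replicate 2 or 3, and 5 without CD8a DC replicate 1 or 3.

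Mitochondrially encoded messages were high in the same libraries. Of 13, 5 (mt-Co2, mt-Co3, mt-Atp6, mt-Atp8 and mt-Nd4l) are listed at 0 in every library and were not tested, so the share of mitochondrial reads given above leaves them out. Of the other 8, 3 rose, against 5 with the length and GC correction. mt-Nd1, a subunit of complex I, was at 11201, 14265 and 9799 CPM with CD8a+ DC, 9027, 7838 and 8116 CPM with CD103+ DC and 7485 and 7822 CPM with CD11b+ DC, highest in the library that stood apart (log2 fold 0.60 ± 0.11 SE, adjusted p = 0.0119). mt-Nd2 and mt-Nd6 had log2 folds of 0.63 and 0.52, and mt-Nd6 lies over mt-Nd5 in the annotation. Of 52 cytosolic ribosomal protein genes, 3 rose, beside 1.1% of all genes tested, with a median of 0.14. Rps2 was at 271, 221 and 285 CPM with CD8a+ DC, 161, 197 and 179 CPM with CD103+ DC and 172 and 188 CPM with CD11b+ DC (log2 fold 0.58 ± 0.11 SE, adjusted p = 0.0128). The 3 mitochondrial calls were 0 without CD11b DC replicate 2 or 3, 1 without any single one of the CD103 DC libraries or CD8a DC replicates 1 and 2, and 6 without CD8a DC replicate 3. The 3 ribosomal calls were 0 without CD11b DC replicate 2 and 1 without CD11b DC replicate 3 or CD8a DC replicate 1.

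Glycolysis (26 genes), sterol and fatty acid synthesis (30) and apoptosis and survival (31) had no called member in limma-trend as tested, with medians of 0.11, -0.06 and -0.11. At an unadjusted p under 0.05 they had 10, 6 and 9 genes, edgeR called none of them and DESeq2 3, 3 and 5. Of the glycolysis genes, 2 fell when a mean normalized count of at least 10 was required, 1 with total-count scaling, 1 in voom, 2 without CD8a DC replicate 2 and 1 without CD8a DC replicate 3. Of the apoptosis genes 3 fell without CD8a DC replicate 2, and of the sterol genes 4 fell without CD8a DC replicate 3. At an unadjusted p under 0.05, 2870 of 18971 genes passed. Among all genes tested, 1.1% were called higher and 1.14% lower. Of 30 amino acid and ATF4 genes only Psat1, of serine synthesis, rose (log2 fold 0.65 ± 0.13 SE, adjusted p = 0.0203), and its CD8a DC and CD103 DC libraries overlapped. Its call was lost when any of the 5 migratory libraries was left out, and 3 genes of the list rose with the length and GC correction. Of 24 genes of TGF-beta and retinoic acid signalling, Ccr9 rose and Rara fell. No gene of that list rose without CD11b DC replicate 3 or CD8a DC replicate 1, and none fell without CD11b DC replicate 2 or 3. Of 25 naive and memory genes Il7r fell, a call lost without CD103 DC replicate 1 or 3 or CD11b DC replicate 2 or 3 or CD8a DC replicate 2 and with the length and GC correction, in which 1 gene of the list rose.

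Some of the largest changes lay outside the lists, and DC transcripts moved with the lower ones too. The genes given here were picked among those without overlap between libraries, so their separation is not a further result. H2-M2, an MHC class Ib gene, was at 1.84, 0 and 0 CPM with CD8a+ DC, 8.82, 12.6 and 9.14 CPM with CD103+ DC and 8.697 and 5.52 CPM with CD11b+ DC, where 0 allows up to 0.137 and 0.159 CPM at 3 reads (log2 fold -5.57 ± 0.99 SE, adjusted p = 0.00986). The log2 fold was -7.29 without CD8a DC replicate 1 and -4.71 without replicate 2 or 3. Nrp2, the co-receptor neuropilin-2, was at 13.7, 4.87 and 6.21 CPM with CD8a+ DC, 34.04, 26.4 and 16.5 CPM with CD103+ DC and 84.6 and 44.7 CPM with CD11b+ DC, with CD11b DC libraries highest (log2 fold -2.32 ± 0.34 SE, adjusted p = 0.00394). Sdc4, the proteoglycan syndecan-4, was at 1.35, 1.05 and 1.86 CPM with CD8a+ DC, 13.7, 12.6 and 15.6 CPM with CD103+ DC and 10.5 and 6.05 CPM with CD11b+ DC, and fell in both comparisons (log2 fold -2.83 ± 0.38 SE, adjusted p = 0.00209). Tlr7, a sensor of single-stranded RNA, was at 2.702, 1.501 and 3.77 CPM with CD8a+ DC, 12.2, 13.6 and 20.5 CPM with CD103+ DC and 5.92 and 10.9 CPM with CD11b+ DC (log2 fold -2.07 ± 0.39 SE, adjusted p = 0.0128). Macf1, a large linker of microtubules and actin, was at 1253, 1152 and 1082 CPM with CD8a+ DC, 2394, 2077 and 2365 CPM with CD103+ DC and 2507 and 2651 CPM with CD11b+ DC, also among the 5 lower genes with the smallest p-values (log2 fold -1.01 ± 0.08 SE, adjusted p = 8.23e-05). Its transcript length of 10372 bases puts it among the 63 genes of 8 kb and over, whose median log2 fold was -0.35.

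Among the genes that rose, Slco4a1, an organic anion transporter, was at 19.2, 18.1 and 22.3 CPM with CD8a+ DC, 3.604, 7.53 and 5.02 CPM with CD103+ DC and 3.199 and 7.58 CPM with CD11b+ DC. The strict rule was met (log2 fold 2.02 ± 0.35 SE, adjusted p = 0.00935). The genes of this paragraph were picked among those without overlap between libraries, so their separation is not a further result. Zfp473, a zinc finger protein known in human cells from histone pre-mRNA processing, was at 20.01, 16.5 and 29.03 CPM with CD8a+ DC, 7.62, 7.83 and 10.4 CPM with CD103+ DC and 6.73 and 5.76 CPM with CD11b+ DC (log2 fold 1.59 ± 0.28 SE, adjusted p = 0.00915), and Lsm11, a U7 snRNP protein of the same process, at 26.2, 29.99 and 29.03 CPM with CD8a+ DC, 13.5, 21.04 and 13.8 CPM with CD103+ DC and 8.98 and 10.2 CPM with CD11b+ DC (log2 fold 1.26 ± 0.22 SE, adjusted p = 0.00991). Serpine2, a secreted protease inhibitor, was at 11.7, 18.8 and 28.1 CPM with CD8a+ DC, 8.25, 4.81 and 6.85 CPM with CD103+ DC and 3.34 and 5.17 CPM with CD11b+ DC (log2 fold 1.87 ± 0.36 SE, adjusted p = 0.0136). Tubb2a, a beta tubulin, was at 23.9, 35.9 and 15.7 CPM with CD8a+ DC, 7.203, 9.42 and 7.101 CPM with CD103+ DC and 12.04 and 7.23 CPM with CD11b+ DC (log2 fold 1.52 ± 0.31 SE, adjusted p = 0.0201).

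In the authors' deposited table, 287 genes had a false discovery rate under 0.05 in both comparisons with the same direction, 131 higher and 156 lower with CD8a+ DC. Of the 99 strict genes, 88 were among them.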

How the data were processed

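RNA of mouse OT-I T cells was sequenced in 8 libraries (CD8a DC n = 3, CD103 DC n = 3, CD11b DC n = 2), each 72 hours in culture. The submitters' processing notes name the build GRCm38, DESeq2 without a version, and STAR 2.4.2a; no read counter or strand setting is named in them. For 43432 genes the authors deposited, per the file headers, a normalized count per library (a signal, each count divided by 1 size factor per library), the gene GC percent, and log2 fold changes and adjusted p-values for pairs of groups.

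Low values were whole multiples of 1 step in each library, so reads were recovered (100% whole within 0.1 read). CPM is the deposited normalized count scaled to the same total in each library, as counts per 1000000. The test, in R 4.3.3, was limma-trend (version 3.58.1 of limma). It took log2 of the normalized count plus a pseudocount of 1, for 18971 genes with a mean of at least 1, in 1 fit of 3 group means with 5 residual degrees of freedom, without a block. The contrast set the CD8a DC group against the mean of the 2 migratory groups, and p-values were adjusted over all genes tested. Folds are differences of mean log2 values and understate the change of low genes. Alternatives were edgeR 4.0.16, DESeq2 1.42.0 and limma-voom on recovered reads, other scalings, pseudocounts and filters, a replicate block, and leaving out each library. Leave-one-out fits were filtered on the libraries that stayed, and 0 to 68 genes without residual spread were left out, because such genes upset the shared variance estimate.

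Named genes were those called with no overlap and at least 5 CPM in the higher group, the 15 largest folds and 5 smallest p-values in each direction, up to 4 members of each of 22 lists, and 10 set genes; predicted genes were passed over. Further called list members, DC markers, Irf1, Irf4 and Cd69, and the 2 genes of opposite sign were named after their values were seen. The comparison, the lists and the named genes were chosen with earlier results of these data known. Promoter windows matched by symbol in RefSeq. In simulated data of 18196 genes, the equal-weight contrast recovered 39.2% of 97 genes given a 2-fold change and 55.9% of 93 given a 4-fold change, with 11 of 101 calls false; the strict rule recovered 26.8% and 53.8%, with 0 of 76 false. Floors of 3 reads and exact tests cover counting error and these libraries only. Values of some genes that were tested, and that the list counts include, are not reported here.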

Additional observations from a re-analysis of the deposited data

How the results depend on the processing

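The equal-weight count of 427 was 424 in edgeR, 487 in voom, 333 without a filter and 573 with the length and GC correction, but 1154 in DESeq2 and 21 without the variance trend. Genes of the same sign in both comparisons (425) numbered 1145 in DESeq2 and 14 without the trend, and strict genes (99) 303 and 6, with 53 when no filter was set. Against the CD103 DC group 273 genes became 831 in DESeq2, 18 without the trend and 159 without a filter, and against the CD11b DC group 374 became 950 and 27. Between the migratory groups 63 became 367 and 27. Leaving out 1 library, limma-trend and edgeR together gave 136 to 592 genes with equal weight, 135 to 589 of the same sign, 17 to 133 strict, 47 to 480 against the CD103 DC group, 29 to 576 against the CD11b DC group and 1 to 238 between the migratory groups. A fit that leaves a CD11b DC group of 1 library assumes that it varies like the others. Of 88 called named genes, 50 to 76 stayed called in these limma-trend fits, 80 to 88 under the other filters, scalings, pseudocounts and tools, and 2 without the trend. Under the 3 other scalings (total count, TMM, length and GC) the median log2 fold stayed between -1.11 and -0.90 for the interferon gamma list, 0.48 and 0.60 for mitosis and 0.32 and 0.43 for the respiratory chain.

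Correlations of deviations from the group means lay between -0.0196 and 0.0148 for same-numbered libraries. For differently numbered libraries of different groups they lay between -0.0148 and 0.0243, so same-numbered libraries were not more alike by this measure. These deviations sum to 0 within a group, so the correlations are tied to each other. Pairing itself was not tested. With the replicate block, the counts were 322 with equal weight, 320 of the same sign, 61 strict, 181 against the CD103 DC group, 279 against the CD11b DC group and 49 between the migratory groups, and 75 of 88 named genes stayed called. Differences in summed marker CPM changed sign when 1 library was left out for B cell (-54.4 to 96.9), stromal and epithelial (-18.7 to 17.9) and immediate early genes (-83.4 to 113.5). With 2 or 3 libraries per group and 5 residual degrees of freedom, the spread between libraries limits which 2-fold changes pass.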
